A study of Mus musculus with 6 samples.

Results

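The insulin-like growth factor (IGF) axis was examined in dental pulp of control mice and of mice with a conditional deletion of *Ror2*, through 10 of the 27506 genes in the count table. They were chosen by gene symbol and are the ligands *Igf1* and *Igf2*, the receptors *Igf1r* and *Igf2r*, and the binding protein genes *Igfbp2*, *Igfbp3*, *Igfbp4*, *Igfbp5*, *Igfbp6* and *Igfbp7*. All 10 passed the filter on low counts, which kept 19330 genes for testing. RNA came from pulp dissected out of mandibular first molars at postnatal day 3.5, the age of all 6 libraries. The 3 control libraries were from *Ror2fl/fl* mice, which carry floxed *Ror2* alleles and no labelled Cre, and the 3 mutant libraries were from *Osr2-Cre;Ror2fl/fl* mice, all on the C57BL/6 strain and with no treatment labelled. The mutants came from *Osr2-Cre;Ror2fl/+* males and *Ror2fl/fl* females. The sample titles carry letter codes, WW for control library 1, OW for the other controls and OR for the mutants. No source used here explains these codes. According to the study's lineage tracing, the Osr2-Cre transgene acts in the dental mesenchyme and alveolar bone and spares the dental epithelium, so epithelial cells of the mutants keep *Ror2*. Neither the labels nor the methods say whether a library was made from 1 animal or from pooled animals, so the p-values below measure the spread between these libraries, which may be technical.

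IGF1 and IGF2 are secreted growth factors that act on cells mainly through the type 1 receptor encoded by *Igf1r*, a receptor tyrosine kinase that recruits adaptor proteins and feeds the PI3K-AKT and ERK pathways. The product of *Igf2r*, also the cation-independent mannose 6-phosphate receptor, takes up IGF2 and carries it to lysosomes. IGF binding proteins hold the ligands in the extracellular space, lengthen their life and limit or direct their access to the receptor, and proteases release the ligands by cutting them. IGFBP7 binds IGFs weakly compared with the others. In developing teeth, IGF signaling is known to act on the growth and differentiation of both mesenchymal and epithelial cells.

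RefSeq start sites on the GRCm38.p6 build were found for 10 of the 10 genes, with 14 windows of 250 bases before a start, since *Igf2* has 4 annotated starts and *Igfbp2* has 2. Each window was searched on both strands for TATAAA and for TATATA, the core of a TATA box, and for GGGCGG, the core of a GC box, which could be found overlapping one another. The windows of *Igfbp3* and *Igfbp4* are shown because each holds a TATA-like motif close to the position at which such motifs usually lie, and because these genes, which are among the most abundant here, differed in how far the 2 groups of libraries separated (below). Capitals mark the motif, and both sequences run 5′ to 3′ and end on the base before the start.
Igfbp3: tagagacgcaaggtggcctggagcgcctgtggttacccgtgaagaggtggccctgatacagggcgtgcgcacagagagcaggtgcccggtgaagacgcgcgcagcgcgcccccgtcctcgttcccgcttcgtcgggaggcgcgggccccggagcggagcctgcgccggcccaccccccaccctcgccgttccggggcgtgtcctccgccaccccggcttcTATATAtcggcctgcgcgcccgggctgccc
Igfbp4: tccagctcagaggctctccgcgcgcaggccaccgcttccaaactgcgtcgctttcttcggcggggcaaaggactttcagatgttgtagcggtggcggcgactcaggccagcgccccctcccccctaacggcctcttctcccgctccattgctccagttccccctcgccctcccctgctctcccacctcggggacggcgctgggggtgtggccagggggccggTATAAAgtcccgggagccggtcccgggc

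The *Igfbp3* window lies at chr11:7213924-7214173 on the minus strand, and its TATATA begins 30 bases before the start. The *Igfbp4* window lies at chr11:99040994-99041243 on the plus strand, and its TATAAA begins 28 bases before the start. Of 32851 RefSeq windows of this length, 12.4% hold TATAAA, 5.25% hold TATATA and 32.7% hold GGGCGG. The *Igfbp3* window holds 32 CpG dinucleotides and the *Igfbp4* window 22, against a median of 6 over all windows. Neither window overlaps an exon of its gene in the GENCODE M21 annotation, whereas the window of *Igf1* lies inside an annotated exon over all of its 250 bases, holds 5 CpG dinucleotides and has none of the 3 motifs.

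*Igfbp5* was by far the most abundant RNA of the axis, and *Igfbp6* the least abundant. Levels of different genes were compared as CPM, which are counts scaled for the size of each library, divided by the length of the exons in kilobases, using all annotated exons of a gene merged. In the control libraries *Igfbp5* averaged 413 ± 42.9 CPM per kilobase (SD, n = 3), which placed it at rank 80 of the 19330 genes tested. *Igfbp2* followed at 118 ± 19.1, *Igfbp3* at 113 ± 10.9, *Igfbp4* at 71.9 ± 2.38, *Igf2* at 59.0 ± 2.09 and *Igfbp7* at 41.3 ± 2.97 CPM per kilobase. The ligand *Igf1* averaged 16.7 ± 3.40 CPM per kilobase, *Igf1r* 16.3 ± 1.40, *Igf2r* 10.4 ± 1.01 and *Igfbp6* 1.03 ± 0.117. The control libraries of neighbouring genes in this order overlapped for *Igfbp2* and *Igfbp3* and for *Igf1* and *Igf1r*, and were separate for every other pair of neighbours among the 10 genes.

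The mutant libraries kept the order of the first 6 genes and of the last 2. *Igf1r* averaged 13.3 ± 2.48 and *Igf1* 10.3 ± 1.20 CPM per kilobase in the mutants, so these neighbours exchanged places, within overlapping ranges. With the length of the longest transcript in place of merged exons, *Igf1* also came after *Igf1r* in the controls. *Igfbp4* (53.3 to 77.9), *Igf2* (44.6 to 54.8) and *Igfbp7* (33.9 to 50.2 CPM per kilobase) overlapped in sequence among the mutant libraries, as did *Igf1* and *Igf2r*, whereas *Igfbp2* (128 to 147) and *Igfbp3* (92.9 to 94.7) did not overlap there. *Igfbp5* made up 54.4 ± 2.75% of the summed level per kilobase of the 6 binding protein genes in the controls and 54.5 ± 4.75% in the mutants.

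**Figure D1:**
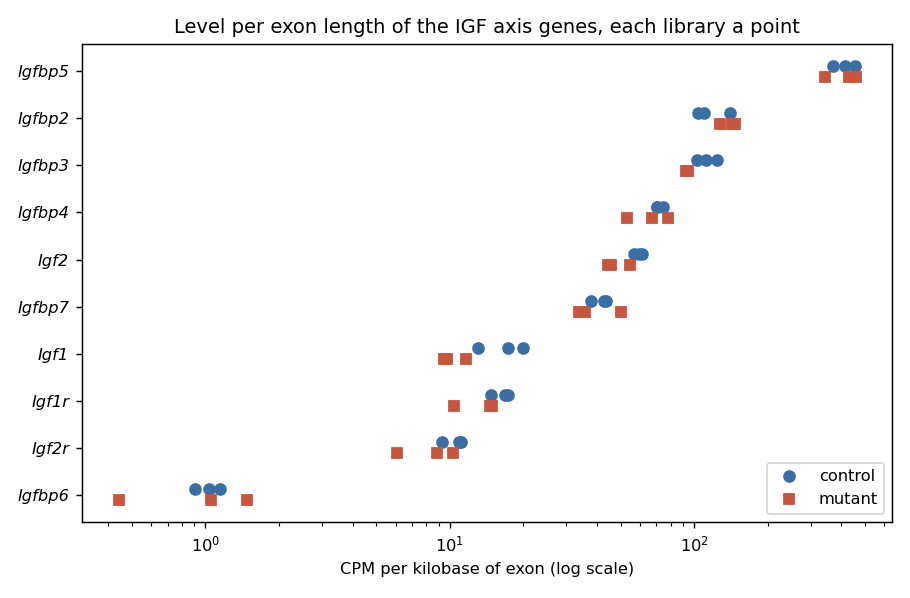
Level of each IGF axis gene in CPM per kilobase of merged exon (horizontal log axis), ordered by the control mean, with 1 point per library (circles, 3 control; squares, 3 mutant). *Igfbp5* lies between 341 and 457 CPM per kilobase in all 6 libraries, *Igfbp6* between 0.442 and 1.48, and the other 8 genes lie between these 2.

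The libraries held between 56134770 and 62628940 estimated counts each. *Ror2*, the targeted gene (chr13:53109312-53286124, minus strand, mm10), measured 38.2, 36.2 and 36.7 CPM in control libraries 1, 2 and 3 and 27.9, 28.1 and 26.3 CPM in mutant libraries 1, 2 and 3, a log2 fold change of -0.43 (SE 0.08, adjusted p = 0.013 by the quasi-likelihood test of edgeR). The methods name counting over exons and no single exon was examined, so RNA of the deleted allele, if present, could be in these values. Although the tissue is labelled dental pulp, *Amelx*, an enamel matrix gene of the dental epithelium, took the most counts in all 6 libraries, 9.15% to 9.97% in the controls and 12.6% to 15.1% in the mutants. Control library 2 and mutant library 2 carried *Xist* with almost no counts of Y-linked genes, and the other 4 carried the reverse. The labels give the libraries of each group identifiers from another series of numbers, so a difference in handling that followed the groups cannot be told apart from the genotype.

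Among the 10 genes, *Igf1* was the only one to pass the test between mutant and control libraries, and it fell. At an adjusted p under 0.05, 3906 of the 19330 genes tested differed, which is 20.2%, and 1 of the 10 IGF axis genes differed, or 10%. None rose and 1 fell, against 10.4% of all genes tested higher and 9.84% lower. Without adjustment 3 of the 10 had p under 0.05, all lower, against 38.3% of all genes tested in either direction. The adjusted threshold was passed by 2 of the 10 with DESeq2 and 2 with limma voom, none higher, against 28% and 32.8% of all genes tested. The log2 fold change was negative for 9 of the 10, against 9536 of the 19330 genes tested, with a median of -0.20 against 0.01. For *Igfbp4*, *Igfbp5*, *Igfbp6* and *Igfbp7* it lay between -0.12 and -0.01, and its sign turned in some fits that left out a library. The 2 groups of libraries did not overlap for 3 of the 10, *Igf1*, *Igf2* and *Igfbp3*, against 44.7% of all genes tested, and in each of the 3 every mutant library was below every control library, which held for 22.1% of all genes tested.

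**Figure D2:**
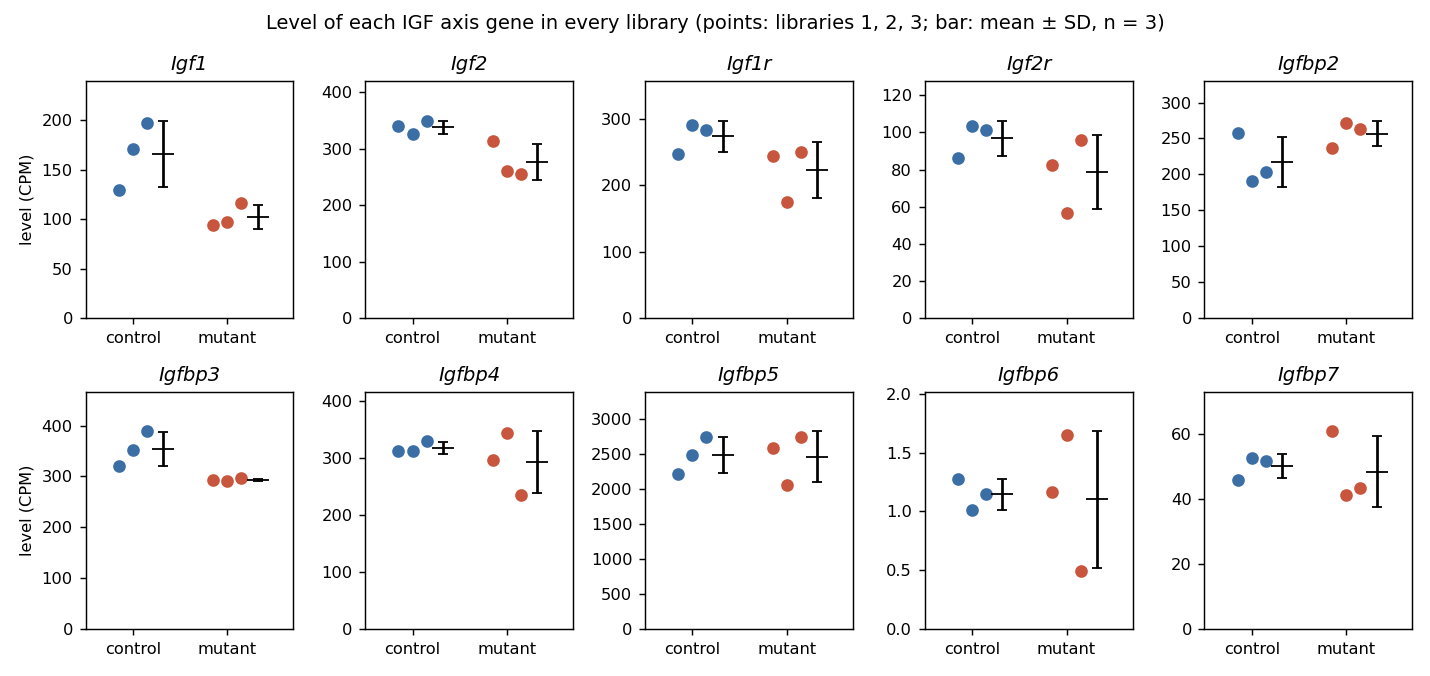
Level in CPM of each IGF axis gene in control and mutant libraries, with 1 point per library in the order 1, 2, 3 and a bar for the mean ± SD (n = 3), on axes that start at 0. The groups are separate for *Igf1* (130 to 197 against 94.1 to 116), *Igf2* (325 to 349 against 255 to 314) and *Igfbp3* (321 to 389 against 291 to 296) and overlap for the other 7 genes.

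The ligand *Igf1* (ENSMUSG00000020053.18, chr10:87858265-87937042, plus strand) measured 130, 171 and 197 CPM in control libraries 1, 2 and 3 and 94.1, 96.7 and 116 CPM in mutant libraries 1, 2 and 3. Every mutant library was below every control library, and the controls spread over a wider range than the mutants. The means were 166 ± 33.7 and 102 ± 11.9 CPM (SD, n = 3), a log2 fold change of -0.70 (SE 0.16, 95% interval -1.07 to -0.32, adjusted p = 0.024 from edgeR), or 1.62-fold lower. An exact two-sided permutation test gave p = 0.1, the smallest that 3 against 3 libraries allow.

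Of the 10 genes, *Igf1* moved most when the fit took the composition of the transcripts into account. Its longest transcript has 38.0% GC, which is among the 10% of tested genes with the lowest GC content, whose median log2 fold change was -0.34. Its 9904 bases of merged exon are among the longest 10%, whose median was -0.24. With an offset for GC content in the edgeR fit the log2 fold change of *Igf1* was -0.32 (adjusted p = 0.15), and with an offset for GC content and length it was -0.19 (adjusted p = 0.30). Its adjusted p was also 0.092 without control library 2, 0.099 without control library 3, 0.069 without mutant library 1 and 0.10 in the 4 libraries with Y-linked counts alone, with log2 fold changes of -0.68, -0.57, -0.64 and -0.63. It was under 0.05 in 10 of 17 alternatives, over a range of 6.8e-04 to 0.30, and *Igf1* stayed lower in the mutants in all 17.

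The ligand *Igf2* (ENSMUSG00000048583.16, chr7:142650766-142666816, minus strand), an imprinted gene that is highly expressed in fetal tissues, measured 339, 325 and 349 CPM in the controls and 314, 261 and 255 CPM in the mutants, in library order. The groups did not overlap, and mutant library 1 was nearest to the controls. A log2 fold change of -0.29 (SE 0.12, 95% interval -0.56 to -0.01) with an adjusted p of 0.11 from edgeR did not pass the test. With the offset for GC content it was -0.46 (adjusted p = 0.041) and with GC content and length -0.43 (adjusted p = 0.035), so for this gene of 55.8% GC the offsets moved the value away from 0. These were the 2 of 18 alternatives in which *Igf2* passed, and its adjusted p ranged from 0.035 to 0.31.

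Reads of *Igf2* could fall on overlapping annotations. Of 5852 stretches of 75 bases in its transcripts, 3526 also occur in *Gm49394*, which had 7 to 57 counts per library beside the 15050 to 21841 of *Igf2*. The antisense gene *Igf2os* shares 26 stretches on the opposite strand, and since the use of strand in the counting is not given in the sources used here, reads from both cannot be told apart. Summing *Igf2* with these genes gave a log2 fold change of -0.29 (adjusted p = 0.11). The other 9 genes of the axis share under 20 such stretches with any gene.

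The IGF type 1 receptor gene *Igf1r* (ENSMUSG00000005533.10, chr7:67952827-68233668, plus strand) measured 247, 291 and 283 CPM in the controls and 244, 175 and 250 CPM in the mutants. Mutant library 2 was the lowest of the 6, and mutant library 3 was above control library 1, so the groups overlapped, with a log2 fold change of -0.29 (95% interval -0.65 to 0.06, adjusted p = 0.20 from edgeR).

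The gene of the IGF2 clearance receptor, *Igf2r* (ENSMUSG00000023830.14, chr17:12682406-12769664, minus strand), measured 86.2, 103 and 101 CPM in the controls and 82.7, 56.8 and 95.9 CPM in the mutants. Mutant library 2 was again the lowest, and again mutant library 3 was above control library 1. *Igf2r* thus had a log2 fold change of -0.31 (95% interval -0.72 to 0.11, adjusted p = 0.25 from edgeR). Without mutant library 2 the log2 fold change was -0.11 for *Igf2r* and -0.14 for *Igf1r*, with adjusted p of 0.50 and 0.34.

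*Igfbp3* was the binding protein gene whose libraries separated by genotype, and *Igfbp2* was the only one of the 6 with a higher mean in the mutants. None of the 6 passed the test with edgeR without an offset. *Igfbp3* (ENSMUSG00000020427.11, chr11:7206086-7213923, minus strand), which encodes the main IGF carrier in serum, measured 321, 351 and 389 CPM in the controls and 292, 291 and 296 CPM in the mutants. The 3 mutant libraries lay close together, below the lowest control. The log2 fold change was -0.27 (SE 0.11, 95% interval -0.53 to -0.01, adjusted p = 0.11 from edgeR). It passed in 3 of 17 alternatives, DESeq2's Wald test (adjusted p = 0.044), limma voom with sample weights (0.031) and the offset for GC content and length (0.048), and the adjusted p ranged from 0.031 to 0.39.

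*Igfbp2* (ENSMUSG00000039323.18, chr1:72824503-72852474, plus strand) measured 258, 191 and 203 CPM in the controls and 237, 271 and 263 CPM in the mutants. Control library 1 was as high as the mutants and lay above mutant library 1. On the log2 scale the difference was 0.24 (95% interval -0.07 to 0.56, adjusted p = 0.23 from edgeR). This gene of 62.1% GC is among the 10% of tested genes with the highest GC content, whose median log2 fold change was 0.23, and with the offsets its own value was 0.01 for GC content and -0.06 for GC content and length, the one alternative that turned its direction.

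*Igfbp5* (ENSMUSG00000026185.8, chr1:72857932-72874884, minus strand) measured 2221, 2487 and 2737 CPM in the controls and 2584, 2050 and 2748 CPM in the mutants. The ranges nearly coincided. The log2 fold change of -0.01 had a 95% interval of -0.38 to 0.36 (adjusted p = 0.96 from edgeR), which runs from 0.766-fold to 1.28-fold. Its sign turned without control library 3 (0.05) or mutant library 2 (0.11) and in the libraries with Y-linked counts alone (0.11).

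*Igfbp4* (ENSMUSG00000017493.12, chr11:99041244-99054392, plus strand) measured 311, 311 and 329 CPM in the controls and 297, 344 and 235 CPM in the mutants. The controls were close to each other, whereas the mutants lay on both sides of them. On the log2 scale the difference was -0.12 (95% interval -0.46 to 0.22, adjusted p = 0.58 from edgeR), and 0.01 without mutant library 3. With the offset for GC content it was -0.29 (adjusted p = 0.17), and for GC content and length -0.28 (adjusted p = 0.15).

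*Igfbp7* (ENSMUSG00000036256.13, chr5:77349240-77408041, minus strand) measured 45.9, 52.5 and 51.5 CPM in the controls and 60.7, 41.0 and 43.3 CPM in the mutants. Mutant library 1 was the highest of the 6 and the other 2 mutants the lowest. The log2 fold change was -0.05 (95% interval -0.40 to 0.30, adjusted p = 0.84 from edgeR), and its sign turned without mutant library 2 (0.07) or 3 (0.02) and in the libraries with Y-linked counts alone (0.10). With the offset for GC content it was -0.26 (adjusted p = 0.29), and for GC content and length -0.39 (adjusted p = 0.18).

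*Igfbp6* (ENSMUSG00000023046.6, chr15:102144362-102149511, plus strand), whose product prefers IGF2, measured 1.27, 1.01 and 1.15 CPM in the controls and 1.17, 1.65 and 0.491 CPM in the mutants, from 29 to 95 counts per library. Mutant libraries 2 and 3 were the highest and the lowest of the 6. The difference was -0.06 on the log2 scale with a wide 95% interval of -0.97 to 0.86 (adjusted p = 0.93 from edgeR), and 0.02 without control library 1 or 0.29 without mutant library 3. That interval runs from 0.509-fold to 1.81-fold, and a difference within it was not detectable at this depth and spread. With the offset for GC content the value was -0.31 (adjusted p = 0.59), and for GC content and length -0.45 (adjusted p = 0.41).

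**Figure D3:**
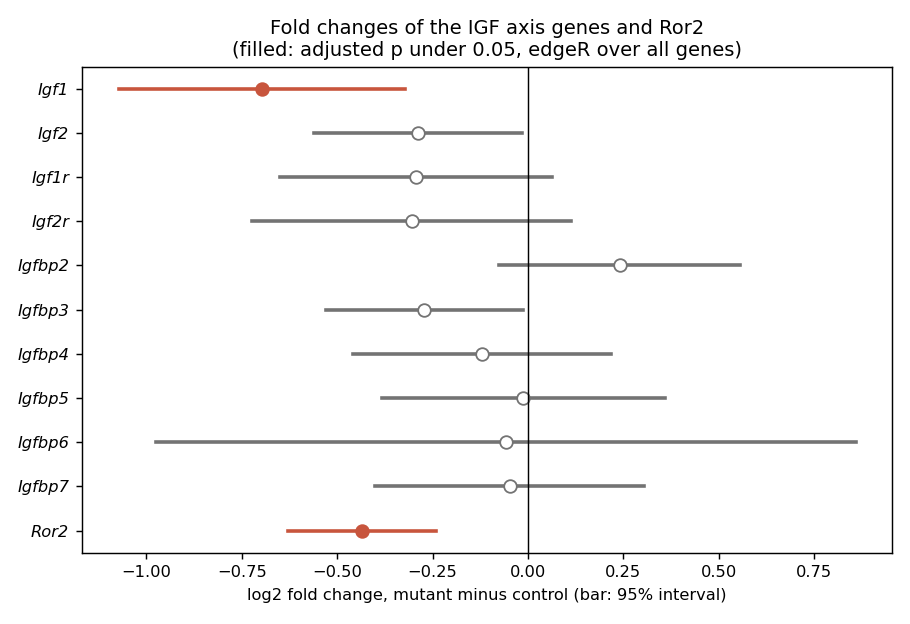
Log2 fold change, mutant minus control, of the 10 IGF axis genes and *Ror2* (points) with 95% intervals from the edgeR fit (bars). Filled points, *Igf1* at -0.70 and *Ror2* at -0.43, passed an adjusted p under 0.05, and of the open points *Igf2* and *Igfbp3* have intervals that stop just short of 0.

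Since the libraries are of bulk tissue, fewer cells of a type and less RNA per cell cannot be told apart in these values. The tissue is labelled dental pulp, yet *Amelx* took the most counts in every library. The summed level of 8 markers of macrophages, which are known to make IGF1, ranged from 154 to 194 CPM in the controls and from 132 to 229 CPM in the mutants, that of 8 dental mesenchyme markers from 369 to 446 and 403 to 455 CPM, and that of 5 odontoblast markers from 14456 to 46185 and 12787 to 35431 CPM. All 3 lists overlapped between the groups. By edgeR's test 20.2% of all genes tested passed. Near that share, 2 of 8 macrophage markers passed, with *Adgre1* lower and *Fcer1g* higher. So did 2 of 8 mesenchyme markers, with *Prrx1* lower (log2 fold change -0.69, adjusted p = 0.018) and *Msx2* higher (0.38, adjusted p = 0.042). No odontoblast marker passed (adjusted p of at least 0.27). These 4 genes were named after their values were seen.

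Of the other marker lists, skeletal muscle differed most. Its markers, led by *Acta1*, summed to 10.8 to 37.4 CPM in the controls and 2.84 to 3.88 CPM in the mutants. In edgeR 7 of 7 tested muscle genes were lower past the threshold. So were 3 of 4 tested cartilage markers and 2 of 6 erythroid markers, against 9.84% of all genes tested lower. The cartilage sum was led by *Col11a2* (means of 785 CPM in the controls and 493 CPM in the mutants). *Col11a2* overlapped between the groups and did not pass (log2 fold change -0.67, adjusted p = 0.26 from edgeR). The cartilage markers that passed, *Acan*, *Col9a1* and *Col2a1*, averaged 2.17, 3.47 and 12.3 CPM in the controls and did not overlap. The sums overlapped for cartilage (400 to 1188 and 350 to 737 CPM) and erythroid markers (782 to 1320 and 244 to 933 CPM). They also overlapped for bone and osteoclast markers (612 to 929 and 642 to 1040 CPM), of which 0 of 7 passed. The 8 dental epithelium markers, led by *Amelx*, summed to 171361 to 191706 CPM in the controls and 184973 to 255227 CPM in the mutants, with none of 8 past the threshold (adjusted p of at least 0.068). No marker of these lists was at 0 in every library. Their part in the values of the IGF axis genes was not tested.

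Around the axis, 10 of 50 other tested IGF pathway genes passed the test, 2 higher and 8 lower in the mutants, from 8 lists holding 55 genes, of which 52 were in the count table. As a share this is near the 20.2% of all genes tested, and the median log2 fold change of the 50 was -0.19. By direction, 10.4% of all genes tested passed as higher and 9.84% as lower. The edgeR counts for the single lists below are to be read beside that 20.2%. Calls that all go in the same direction are to be read beside the share for that direction. With DESeq2, 17 of the 50 passed and with limma voom 21, against 28% and 32.8% of all genes tested. With edgeR none passed without control library 2 or without control library 3, where 4.57% and 4.39% of all genes tested did, and 16 and 15 had an unadjusted p under 0.05, against 25.5% and 26% of all genes tested.

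Among genes that free IGFs from binding proteins or restrain their release, 2 of 7 tested passed, in opposite directions. *Stc2* encodes stanniocalcin 2, an inhibitor of the pappalysin proteases that cut IGFBP4 and IGFBP5. It measured 18.3, 22.8 and 21.8 CPM in the controls and 11.1, 14.2 and 8.98 CPM in the mutants, which did not overlap. It fell by 0.87 on the log2 scale (SE 0.18, adjusted p = 0.015 from edgeR) and passed in 15 of 17 alternatives, including both offsets.

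*Htra1*, a secreted serine protease that can cut IGFBP5, measured 23.9, 19.3 and 20.97 CPM in the controls and 35.8, 26.3 and 50.4 CPM in the mutants. All mutants were above all controls, with mutant library 3 the highest. It rose by 0.81 on the log2 scale (SE 0.22, adjusted p = 0.035 from edgeR), and passed in 10 of 17 alternatives. With the offset for GC content its value was 0.64 (adjusted p = 0.095). *Adam12*, a metalloprotease reported to cut IGFBP3 and IGFBP5, had a log2 fold change of -0.68 that did not pass (adjusted p = 0.058).

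Of 3 tested receptor genes related to the axis, *Ghr* passed. It encodes the growth hormone receptor, through which growth hormone induces *Igf1* in several tissues. *Ghr* measured 54.7, 77.5 and 75.1 CPM in the controls and 49.3, 41.3 and 39.2 CPM in the mutants, with no overlap. It fell by 0.67 on the log2 scale (SE 0.15, adjusted p = 0.021 from edgeR) and, like *Igf1*, did not pass with the offset for GC content (-0.38, adjusted p = 0.10) or for GC content and length (-0.27, adjusted p = 0.18). *Sort1*, which encodes the sorting receptor sortilin, had a value of -0.50 (adjusted p = 0.098) and *Insr*, the insulin receptor gene, -0.18 (adjusted p = 0.45).

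Adaptors and scaffolds that bind the activated receptors gave 2 calls among 11 tested genes, both lower. *Grb10*, an imprinted gene whose product dampens signaling by the IGF and insulin receptors, measured 129, 153 and 156 CPM in the controls and 112, 95.2 and 105 CPM in the mutants. It fell by 0.49 on the log2 scale (SE 0.11, adjusted p = 0.024 from edgeR), without overlap, and passed in 12 of 17 alternatives. Its relative *Grb14* fell by 0.72 (SE 0.21, adjusted p = 0.045 from edgeR) and passed in 7 of 17. *Sh2b1*, an adaptor of receptor tyrosine kinases and JAK2, had a value of 0.21 (adjusted p = 0.14).

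In the PI3K, AKT and FOXO list, 3 of 16 tested genes passed, all lower. *Foxo1*, a transcription factor that AKT keeps out of the nucleus, measured 262, 254 and 248 CPM in the controls and 192, 154 and 208 CPM in the mutants. It fell by 0.46 on the log2 scale (SE 0.13, adjusted p = 0.041 from edgeR), and the groups did not overlap. *Pik3r3*, which encodes a regulatory subunit of PI3K, fell by 0.37 (SE 0.09, adjusted p = 0.024 from edgeR). *Foxo1* passed in 9 of 18 alternatives, with the offset for GC content (adjusted p = 0.048) but not for GC content and length (-0.35, adjusted p = 0.053). *Pik3r3* passed in 10 of 18, with neither offset (-0.20, adjusted p = 0.14, and -0.17, adjusted p = 0.18). *Pik3r3* shares 22.7% of its stretches of 75 bases with *Gm49337*, which had at most 9 counts.

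The ERK cascade list gave 1 call in each direction among 6 tested genes, and the 2 genes encode the paired kinases that activate ERK. *Map2k1* (MEK1) measured 49.7, 46.6 and 46.5 CPM in the controls and 32.9, 26.3 and 36.3 CPM in the mutants, and *Map2k2* (MEK2) measured 85.3, 76.9 and 77.0 CPM in the controls and 108, 109 and 108 CPM in the mutants. Neither gene overlapped between the groups. *Map2k1* fell by 0.58 on the log2 scale (SE 0.13, adjusted p = 0.018 from edgeR) and passed in 14 of 17 alternatives. *Map2k2* rose by 0.44 (SE 0.09, adjusted p = 0.015) and passed in 10 of 17, but not with the offset for GC content (0.21, adjusted p = 0.14).

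In the other 3 lists no gene passed with edgeR when no offset was used and all libraries were kept. Of 2 tested binding protein relatives, *Igfbpl1* had 12.6, 2.95 and 3.40 CPM in the controls and 11.8, 9.77 and 17.8 CPM in the mutants (log2 fold change 1.05, SE 0.52, adjusted p = 0.18), with control library 1 among the mutants. Without that library its value was 2.04 (adjusted p = 0.011 from edgeR), and it also passed with limma voom and sample weights (1.83, adjusted p = 0.0058). *Igfals*, which encodes the acid-labile subunit of the serum IGF complex, was low, at 1.39 to 1.52 CPM in the controls and 0.779 to 1.10 CPM in the mutants (-0.69, adjusted p = 0.070). It passed with the offset for GC content (-0.91, adjusted p = 0.041 from edgeR) and for GC content and length (-0.93, adjusted p = 0.039). In this pair 1 gene had an unadjusted p under 0.05 with edgeR, none passed with DESeq2 and 1 passed with limma voom.

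The *Igf2* mRNA-binding protein genes differed by less than the spread between libraries, with log2 fold changes of -0.03 for *Igf2bp1*, 0.06 for *Igf2bp2* and -0.02 for *Igf2bp3*, and 0 of 3 had an unadjusted p under 0.05 with edgeR, DESeq2 or limma voom. Of the RNAs of the *Igf2* locus, *H19*, the imprinted neighbour of *Igf2* that is expressed from the other parental allele, measured 419, 265 and 328 CPM in the controls and 255, 292 and 247 CPM in the mutants. Its groups overlapped, and its value was -0.35 (adjusted p = 0.17 from edgeR). With the offset for GC content and length it was -0.58 (adjusted p = 0.032), the one of 17 alternatives in which *H19* passed. *Igf2os* stood at -0.09 (adjusted p = 0.81). Neither had an unadjusted p under 0.05 with edgeR without an offset and with all libraries or with limma voom, and 1 of the 2 had one with DESeq2, where neither passed after adjustment.

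**Figure D4:**
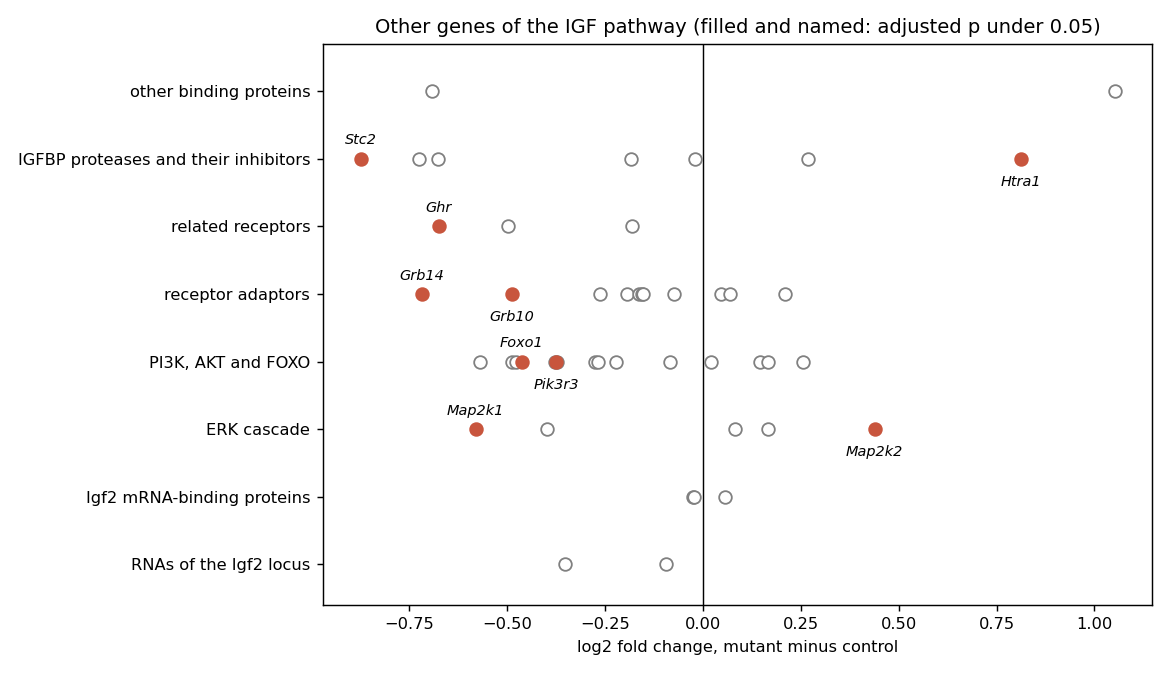
Log2 fold change, mutant minus control, of 48 of the 50 tested genes in 8 lists around the IGF axis, 1 point per gene and 1 row per list. The 9 filled and named points passed an adjusted p under 0.05 in edgeR, with *Stc2* at -0.87 and *Htra1* at 0.81 the farthest on either side among them.

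For each gene of the axis, the tested gene with the most similar pattern was sought by the correlation of log2 CPM over the 6 libraries, among 9616 or 9617 genes with a mean of at least 10 CPM. *Igf1* was nearest to *Ap1s2* (Pearson's r = 0.996), which encodes an adaptor subunit of clathrin-coated vesicles and measured 15.6 ± 2.65 CPM in the controls and 9.95 ± 1.29 CPM in the mutants. *Igfbp3* was nearest to *Samhd1* (r = 0.981), at 26.6 ± 2.77 and 19.9 ± 0.263 CPM, and *Igf2* to *Tspan7* (r = 0.990), at 33.5 ± 0.430 and 28.1 ± 2.98 CPM.

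The nearest genes of the receptors, *Hipk3* for *Igf1r* (r = 0.999) and *Klhl11* for *Igf2r* (r = 0.999), were lowest in mutant library 2, as the receptors were. For the other binding proteins the nearest genes were *Pebp1* for *Igfbp2* (r = 0.999), *Lgals8* for *Igfbp4* (0.990), *Entpd1* for *Igfbp5* (0.991), *Pop4* for *Igfbp6* (0.977) and *Trappc9* for *Igfbp7* (0.989). Over these 6 libraries, high values were common for some genes of the axis. An r over 0.9 was reached by 507 genes with *Igf1*, 1414 with *Igf1r* and 24 with *Igfbp6*, so these correlations are a description.

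**Figure D5:**
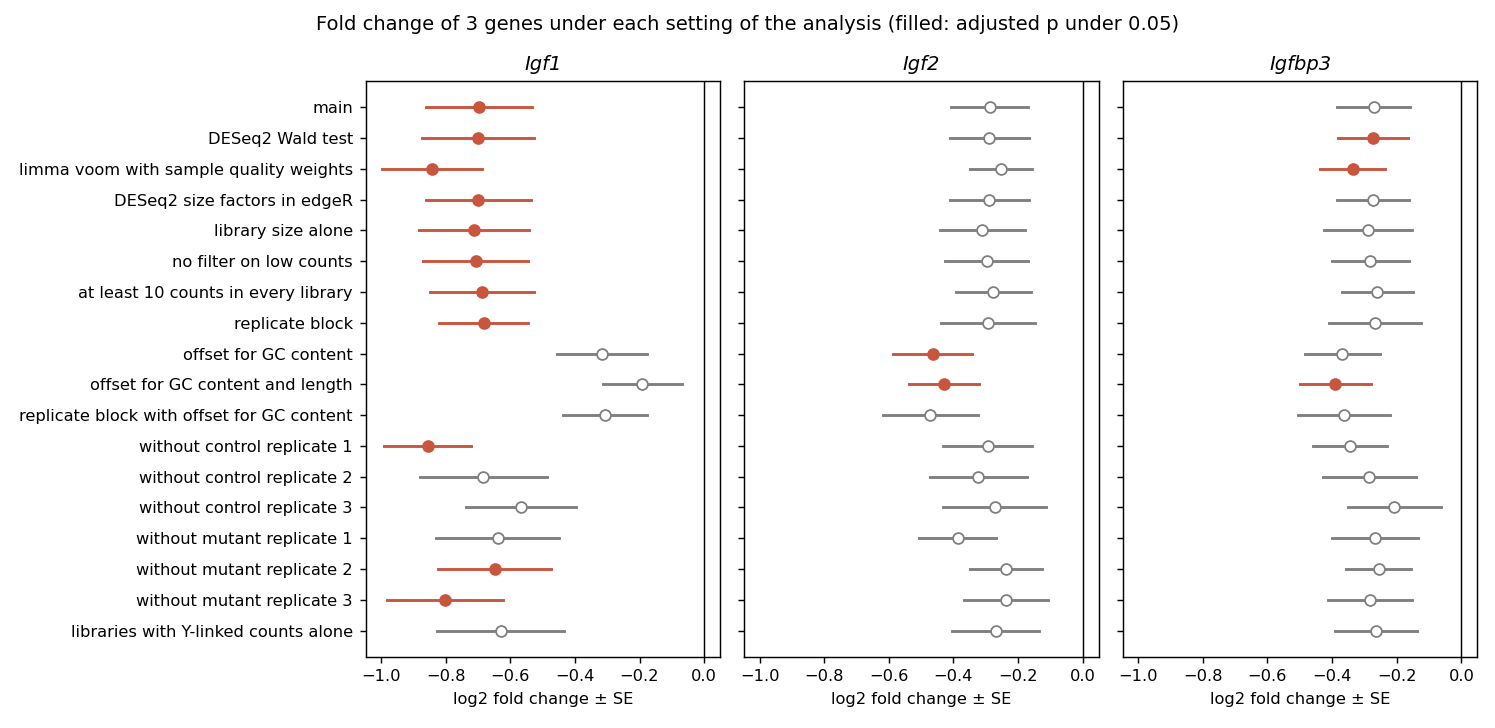
Log2 fold change ± SE of *Igf1*, *Igf2* and *Igfbp3*, mutant minus control, under the main analysis and each alternative setting, with filled points for an adjusted p under 0.05. *Igf1* lies nearest to 0 with the offsets for GC content and length (-0.19), where *Igf2* (-0.43) and *Igfbp3* (-0.39) lie farther from 0 than in the main analysis (-0.29 and -0.27).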

How the data were processed

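The genes and lists were chosen with earlier results of these data known. The authors deposited estimated counts per gene for these 6 libraries, of which 47.8% of values, zeros included, are whole numbers, and a normalized table that was not used. The methods name single-end reads of 75 cycles, TopHat and counting over exons, whereas the submitters' processing notes name STAR 2.6.1d, Partek and mm10, so the counting step is uncertain. The counting program, its annotation and use of strand are not given in the sources used here. The table's 6 columns of other samples were not used.

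Counts were rounded, scaled by TMM and filtered with filterByExpr in edgeR 4.0.16 (R 4.3.3), and tested over all genes with the quasi-likelihood test and Benjamini-Hochberg adjustment at 0.05. The biological coefficient of variation was 18.7%. CPM values are TMM-scaled, a prior count of 2 was added for the log2 values of permutation tests, and limma 3.58.1 and DESeq2 1.42.0 were alternatives. The fit was tested on simulated counts with known changes. These had the same dispersion for all genes and no trend with GC content, length or sex, so they do not bear on such differences. Gene coordinates, exon lengths and GC content came from GENCODE M21, whose coordinates equalled those of 27484 of the 27506 genes, and promoter windows from RefSeq. Stretches of 75 bases, the read length, were compared between transcripts, and 20 shared stretches were taken as shared sequence.

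The named genes were the 10 members, *Ror2*, the 3 genes of each list with the smallest p and the gene most like each member, of which 2 are not reported here. Marker lists were described by their summed level and their gene of highest mean. Alternatives were other tests, scaling and filters, the replicate number as a block, lowess offsets (span 0.3) for GC content and length, leaving out each library, summing genes that share sequence and, added after the data were seen, the 4 libraries with Y-linked counts. Libraries of a group differed by far more than sampling noise (chi-square per gene of at least 56.2), so none is a copy.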

Additional observations from a re-analysis of the deposited data

How the results depend on the processing

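Of 171 fold changes of the 10 IGF axis genes under the alternatives, 149 kept their direction and side of the threshold, 7 lost it (all *Igf1*), 5 gained it and 10 turned direction. For 22 other genes that the rule for names covers these were 280, 65, 16 and 20 of 381. None of the 10 that turned was past the threshold in either setting.

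The number of genes past the threshold, 3906, was 6341 with limma voom, 2013 with the replicate block, 1323 with the block and GC offset, 1405 in the 4 libraries with Y-linked counts, and 872 to 5001 when a library was left out (910 without control library 2, 872 without control library 3, 2404 without mutant library 1). The number of IGF axis genes, 1, was 2 with DESeq2, with limma voom and with the GC and length offset, 0 with the block and GC offset (3 at an unadjusted p under 0.05 in edgeR) and in the Y-linked libraries (1 unadjusted), and 0 to 1 when a library was left out, with 0 without control library 2, control library 3 or mutant library 1. The number of other pathway genes, 10, was 17 with DESeq2, 21 with limma voom, 16 by library size alone, 3 with the replicate block, 5 with the GC offset, 6 with GC and length, 2 with the block and GC offset, 3 in the Y-linked libraries and 0 to 12 when a library was left out. The causes were not tested.

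Same-numbered libraries deviated from their group means with correlations of -0.10, -0.08 and -0.0038. They also share the presence or absence of Y-linked counts, and the methods speak of pairs of samples. With so few libraries, these correlations cannot decide whether same-numbered libraries were paired. With the replicate block *Ror2* was at -0.43 (adjusted p = 0.058), *Igf1* at -0.68 (adjusted p = 0.028) and *Igf2* and *Igfbp3* at adjusted p of 0.21 and 0.24. *Ror2* ranged from -0.46 to -0.41 when a library was left out, with adjusted p of 0.066 without control library 2 and 0.075 without control library 3. With the offset for GC content *Ror2* was at -0.65 (adjusted p = 0.0022 from edgeR), and for GC content and length at -0.64 (adjusted p = 0.0021).

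Values that turned with the GC and length offset were *Igfbp2* (-0.062), *Insr* (0.068), *Sh2b1* (-0.0056), *Igf2bp3* (0.19) and *Igf2bp1* (0.039), and with the GC offset *Sh2b1* (-0.0091) and *Igf2bp3* (0.099), also with the block (-0.013 and 0.098). *Igf2bp1* turned with the replicate block (0.011), and *Igf2bp3* with limma voom (0.044) and when summed with *Malsu1*, which shares its sequence (0.069). In the Y-linked libraries *Igfbp5* (0.11), *Igfbp7* (0.10), *Insr* (0.058) and *Igf2bp3* (0.020) turned. Leaving out a library gave ranges through 0 for *Igfbp4* (-0.24 to 0.0092), *Igfbp5* (-0.10 to 0.11), *Igfbp6* (-0.46 to 0.29), *Igfbp7* (-0.24 to 0.068), *Igf2bp1* (-0.24 to 0.24), *Igf2bp2* (-0.030 to 0.16), *Igf2bp3* (-0.088 to 0.034) and *Igf2os* (-0.30 to 0.14).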

Other observations

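The balance of binding protein and ligand RNA was computed after the values of the single genes were seen, and it has no test. The summed level of *Igf1* and *Igf2* was 72.4, 74.1 and 80.8 CPM per kilobase in control libraries 1, 2 and 3 and 64.3, 55.4 and 56.3 CPM per kilobase in mutant libraries 1, 2 and 3. The summed level of the 6 binding protein genes was 758 ± 45.0 CPM per kilobase in the controls and 750 ± 48.3 CPM per kilobase in the mutants (SD, n = 3). Its ratio to the ligand sum was 9.97, 10.06 and 10.01 in the controls and 11.98, 12.5 and 13.9 in the mutants. Every mutant ratio was above every control ratio, and the control ratios varied less than the control ligand sums (SD 0.0445 on a mean of 10.01, and SD 4.45 on a mean of 75.7 CPM per kilobase). *Igf1* and *Igf2* were each lower in every mutant library, so the separation of the ratio is not independent of theirs. No offset for GC content or length was applied to these sums.

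The ratio of *Igf2* to *Igf1* per kilobase was 4.52, 3.29 and 3.07 in the controls and 5.77, 4.67 and 3.81 in the mutants. These ranges overlapped, since control library 1 lay above mutant library 3. The ratio of *Igf1r* to *Igf2r* was 1.59, 1.56 and 1.55 in the controls and 1.64, 1.71 and 1.44 in the mutants, so the type 1 receptor was the more abundant of the 2 receptor RNAs in every library.

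Over all genes tested the median log2 fold change rose from -0.34 in the 10% with the lowest GC content to 0.23 in the 10% with the highest, and fell from 0.24 in the 10% with the shortest exons to -0.24 in the 10% with the longest. *Igf1*, *Igf1r* and *Igf2r* are among the longest 10%, and *Igfbp2*, *Igfbp6* and *Igfbp7* among the 10% with the highest GC content.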
